A study of Mus musculus with 4 samples.

Results

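Fcer1g, Tyrobp, Lilr4b and Lilrb4a were followed across the cell labels of a tumor library and a lymph node library of mouse T cells. These 4 genes, out of 14721 in the count table, were chosen by their measured UMI levels across labels and libraries in earlier results of the same data, so those levels are given as a description with no test. All 4 were found in the table. Fcer1g and Tyrobp encode signalling adaptor chains, and Lilr4b and Lilrb4a encode the gp49 receptors.

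Mice bearing B16F10 melanoma received cyclophosphamide at 250 mg/kg and, on the following day, TRP1 CD4+ T cells, which carry a transgenic receptor for a melanocyte antigen. Tumors were taken 11 days after that transfer, and the transferred cells, marked by CD45.1, were sorted as CD4+ and CD4+CD8+ T cells; no sort is stated for the lymph node cells. The strain label is RAG1- BW TRP-1 TCR and the treatment label is untreated, for tumor and lymph node alike, although the protocol gives cyclophosphamide to all. A single RNA library was made per tissue, so no difference between labels or tissues has a replicate check. Tissue and library cannot be told apart, nor can tissue and the transgenic against endogenous origin of the cells. The number of mice is unstated in the sources used here. The tumor library was titled as transgenic and endogenous cells. It held 2693 cells labelled Tdp (median 6633 UMIs), 2451 labelled Cd4 (5533), 406 labelled Tcell (2040), 19 labelled Treg and 1 labelled Cd8. The lymph node library, titled as endogenous cells, held 2788 Cd8 (6306), 1873 Cd4 (4763), 321 Treg (5225) and 6 Tdp cells. The same receptor sequence pair was called in 98.1% of tumor Tdp and 93.0% of tumor Cd4 cells, and in no lymph node cell of the Cd8, Cd4 and Treg labels. The libraries share 36 cell barcodes; 3 of the 72 cells concerned held an Fcer1g UMI. The meaning of the label Tdp is not stated there either.

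Fcer1g encodes the common gamma chain of Fc receptors, a short transmembrane protein whose cytoplasmic tail carries an activation motif (ITAM) that recruits the kinases Syk and Zap70 once phosphorylated. It serves Fc receptors on mast cells, macrophages and natural killer cells and can substitute for the related CD3 zeta chain, Cd247, in T cell receptor complexes. Tyrobp encodes DAP12, an ITAM adaptor of natural killer and myeloid receptors. Lilr4b and Lilrb4a encode gp49A and gp49B, immunoglobulin-family surface proteins first described on mast cells, of which gp49B carries inhibitory motifs (ITIMs) that recruit the phosphatases encoded by Ptpn6 and Inpp5d.

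In GRCm38.p6, Fcer1g lies on chromosome 1 at 171229572 to 171234349 and Tyrobp on chromosome 7 at 30413782 to 30417582, with Hcst, the gene of the adaptor DAP10, 129 bases away. Lilr4b (51480612 to 51486329) and Lilrb4a (51490898 to 51496613) are neighbours on chromosome 10, 4568 bases apart. Their coding sequences are closely similar, so reads may have been assigned to the wrong gene of this pair and their separate values are uncertain. RefSeq promoter sequences for Fcer1g and Lilr4b, from 250 bases before the start of the gene to 50 from it on, are shown, the 2 of the 4 genes matched by symbol in the promoter table. Capitals mark matches, on either strand, to 6 motifs that were searched: AGGAAG (core of the PU.1 and ETS sites), TGANTCA (AP-1), ACCACA (RUNX core), AAAGGTCA (NR4A), TGACGTCA (CRE) and AGGTGT (T-box core).
Fcer1g, chr1:171234300-171234599, minus strand: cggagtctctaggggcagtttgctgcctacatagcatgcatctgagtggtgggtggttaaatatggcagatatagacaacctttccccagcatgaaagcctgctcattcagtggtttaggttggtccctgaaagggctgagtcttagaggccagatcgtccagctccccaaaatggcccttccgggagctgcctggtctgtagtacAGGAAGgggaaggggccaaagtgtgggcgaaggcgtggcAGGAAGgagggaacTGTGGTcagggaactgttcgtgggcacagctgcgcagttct
Lilr4b, chr10:51480362-51480661, plus strand: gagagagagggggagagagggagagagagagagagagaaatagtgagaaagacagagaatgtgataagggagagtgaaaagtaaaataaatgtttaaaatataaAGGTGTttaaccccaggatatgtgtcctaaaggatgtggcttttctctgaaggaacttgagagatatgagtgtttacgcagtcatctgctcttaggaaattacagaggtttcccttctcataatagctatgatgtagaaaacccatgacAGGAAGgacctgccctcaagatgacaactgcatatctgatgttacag
The Fcer1g window held AGGAAG at 44 bases before the start and again across the start, and ACCACA on the opposite strand, reading TGTGGT here, from 9 bases after it. The Lilr4b window held AGGTGT at 146 bases before the start and AGGAAG 3 bases after it. Of 32851 promoter windows, 35.4% held AGGAAG, 16.8% ACCACA and 13.7% AGGTGT on either strand. TGANTCA, AAAGGTCA and TGACGTCA, held by 7.81%, 1.51% and 1.79% of windows, were in neither window. These letters describe the sequence and do not show binding.

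Each gene had its own order across labels. Levels below are CPM, the UMIs of a gene scaled to a common total of UMIs per group, with 95% intervals that cover counting error only. Among the 6 label groups of 50 cells or more, Fcer1g was highest in tumor Cd4 cells, at 37.3 CPM (34.2 to 40.7), ahead of tumor Tdp cells at 10.6 CPM (9.14 to 12.2). It stood at 5.93 CPM (1.93 to 13.8) in tumor Tcell cells and 4.69 CPM (3.75 to 5.80) in lymph node Cd8 cells, with overlapping intervals. Lymph node Cd4 cells had 0.556 CPM (5 UMIs) and Treg cells 1.05 CPM (2 UMIs). The 6 lymph node Tdp cells, too few to rank, held 3 Fcer1g UMIs in 2 cells (60.4 CPM, 12.5 to 176). Tyrobp had another order: 7.01 CPM (5.84 to 8.34) in lymph node Cd8 cells, 3.95 CPM (3.09 to 4.97) in tumor Tdp cells and 1.50 CPM (0.931 to 2.30) in tumor Cd4 cells. In tumor Tcell, lymph node Treg and lymph node Cd4 cells it had 2, 2 and 5 UMIs. These levels are low, and 3 cells held 70.9% of the Tyrobp UMIs of the lymph node Cd8 label.

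**Figure D1:**
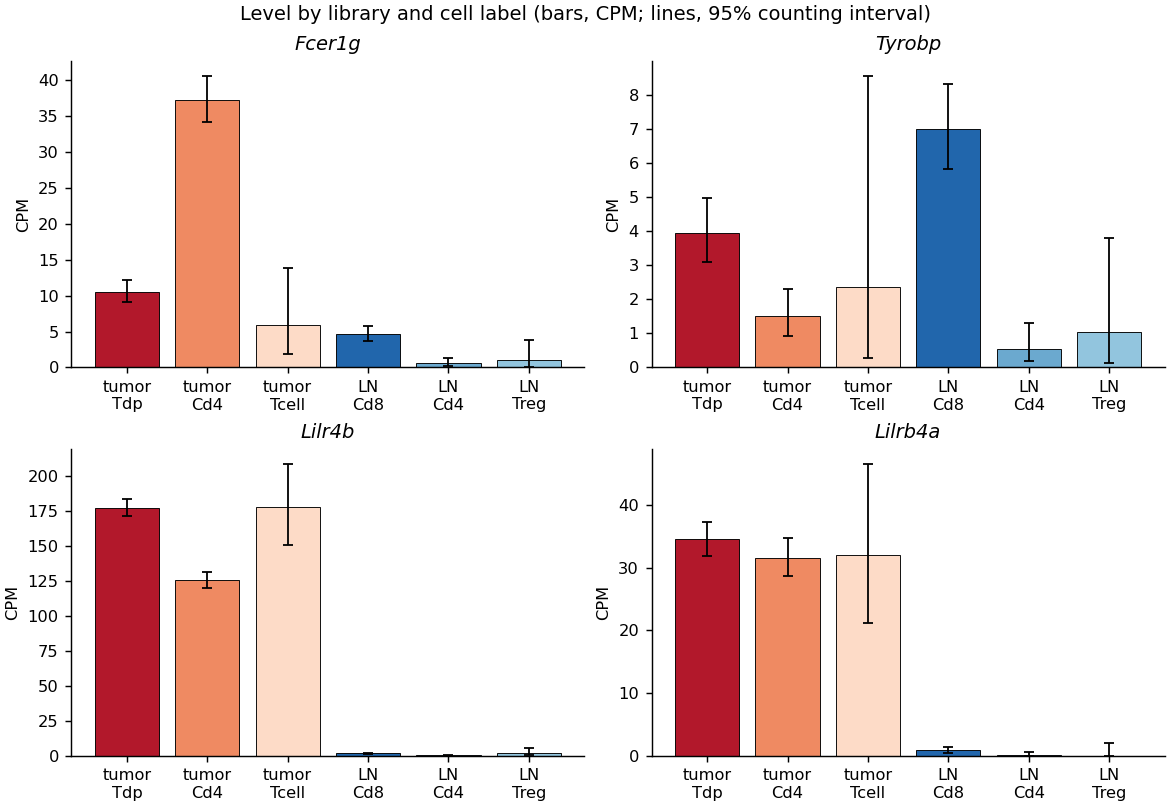
Levels (vertical axes, CPM, each panel with its own scale from 0) of the 4 genes in the 6 label groups of 50 cells or more (LN, lymph node); bars give 1 library each and lines the 95% counting interval. Fcer1g peaks in tumor Cd4 cells at 37.3 CPM and Tyrobp in lymph node Cd8 cells at 7.01 CPM, while both gp49 genes are high in all 3 tumor labels and near 0 in the lymph node.

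Lilr4b was abundant in the Tdp, Cd4 and Tcell labels of the tumor and nearly missing from the Cd8, Cd4 and Treg labels of the lymph node. It stood at 177 CPM (171 to 183) in tumor Tdp, 125 CPM (120 to 131) in tumor Cd4 and 178 CPM (151 to 209) in tumor Tcell cells. In the lymph node it was at 1.49 CPM (27 UMIs) in Cd8, 2.10 CPM (4 UMIs, all in 1 cell) in Treg and 0.111 CPM (1 UMI) in Cd4 cells. The 6 lymph node Tdp cells had 3 Lilr4b UMIs in 3 cells (60.4 CPM, 12.5 to 176) and no Lilrb4a UMI. Lilrb4a had the same split between tissues, with 34.5 CPM (31.9 to 37.3) in tumor Tdp, 31.6 CPM (28.7 to 34.7) in tumor Cd4 and 32.0 CPM (21.1 to 46.6) in tumor Tcell cells, whose intervals overlap. Lymph node Cd8 cells had 15 Lilrb4a UMIs, Cd4 cells 1 and Treg cells none, where 0 UMIs allow up to 3 by counting.

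Thinned to 2000 UMIs per cell, a Lilr4b UMI was found in 29.1% (27.4 to 30.9) of tumor Tdp, 20.3% (18.7 to 22.0) of tumor Cd4 and 31.8% (25.6 to 38.5) of tumor Tcell cells, so the sparse Tcell label was close to Tdp. Unthinned shares followed depth as well: 61.7%, 41.7% and 26.8% in that order. For Lilrb4a the thinned shares were 6.68%, 6.24% and 6.07%. For Fcer1g they were 1.35% (0.949 to 1.87) in tumor Tdp and 4.63% (3.83 to 5.55) in tumor Cd4 cells, against 0.0552% in lymph node Cd4 cells, a label in which the gene was nearly absent; unthinned, the shares were 2.67%, 7.06% and 0.160%.

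Between the tumor labels, Fcer1g was 3.53-fold lower in Tdp than in Cd4 cells (2.98 to 4.18), and neither gp49 gene differed by 2-fold: Lilr4b was 1.41-fold higher (1.33 to 1.50) and Lilrb4a 1.09-fold higher (0.967 to 1.24). Genes of at least 20 CPM in 1 or both groups were counted, and a 2-fold ratio was called. Of the 3 genes of the list counted here, 1 was lower and 0 were higher, where 2.3% of 4819 genes were lower and 1.18% higher. Against lymph node Cd4 cells, tumor Cd4 cells had 3 of 3 counted genes of the list higher, beside 14.7% of 5133 genes: Fcer1g by 67.1-fold (28.6 to 208), Lilr4b by 1128-fold (202 to 44595) and Lilrb4a by 284-fold (50.7 to 11244), both of the last against a single lymph node UMI. Tumor Tdp cells had 2 of 2 counted genes of the list higher than lymph node Cd8 cells, beside 11.4% of 4836 genes: Lilr4b by 119-fold (81.6 to 181) and Lilrb4a by 41.7-fold (25.1 to 75.0). Under 20 CPM in that comparison, Fcer1g was 2.25-fold higher (1.74 to 2.95) and Tyrobp 1.78-fold lower (1.32 to 2.41) in tumor Tdp cells; among cells with a receptor call the log2 ratios of CPM + 1 were 1.72 and 0.65, so the direction of Tyrobp turned. Without cells holding macrophage, neutrophil, mast cell, B cell or melanoma markers these ratios were 0.082, down from 1.02, and -1.74. A cell with 1 UMI of any such gene was left out. The B cell genes include Ighm, far higher in the lymph node Cd8 label (log2 ratio -4.78). The filter can thus remove many more cells from that label, and the number removed is not given here. Natural killer, dendritic and gamma-delta markers were not part of this filter. The counted genes passed the level through the tumor label and were chosen with such differences known, so nothing is read from the counts. Between lymph node labels no gene of the list reached 20 CPM, where 10.5% of genes were higher in Treg and 2.12% higher and 1.44% lower in Cd8 than in Cd4 cells.

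The chains and kinases that work with these adaptors had other patterns. Among 7 ITAM or related adaptor genes, 6 were counted between the tumor labels. In Tdp cells none was higher and 2 were lower, beside 1.18% and 2.3% of 4819 genes. The 2 were Fcer1g itself, chosen by its level, and Cd247, at 197 against 527 CPM, 2.68-fold lower (2.58 to 2.79). Cd3d, Cd3e, Cd3g and Hcst stayed within 1.15-fold between these labels, with Hcst at 1031 and 1065 CPM. So both zeta-family chains, Fcer1g and Cd247, were lower in Tdp cells while the 4 other counted chains were nearly equal. Tyrobp, the seventh listed gene and not counted, was 2.62-fold higher (1.60 to 4.49). For the 6 counted genes, the median log2 ratio was -0.12, against -0.11 for all counted genes. Syk, the kinase recruited by ITAM adaptors in myeloid cells, had 3 UMIs in tumor Tdp and 3 in tumor Cd4 cells. Zap70, its T cell relative, stood at 253 and 384 CPM. Of 13 kinases and adaptors close to the receptor, 9 were counted, with 1 higher in Tdp cells, beside 1.18% of 4819 genes. That gene was Lat2, a membrane adaptor of mast cells and B cells, at 56.0 against 23.0 CPM.

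Few receptors that use these adaptors reached 20 CPM. Of 18 listed Fcer1g partner genes 12 were in the table and 1 was counted in tumor cells, Il3ra, which stood at 44.4 CPM in Tdp cells beside 38.2 CPM in the Cd4 label; the Fc receptor gene Fcgr3 had 5 UMIs in Tdp and 21 in Cd4 cells. Of 17 listed Tyrobp partners 13 were in the table and 2 were counted between tumor labels, Klrk1, 2.65-fold higher in Tdp cells, and Klrd1, 1.41-fold higher. Below that level, Klrc2, the gene of the activating receptor NKG2C, had 288 UMIs (15.8 CPM) in tumor Tdp and 123 (8.81 CPM) in tumor Cd4 cells. Klrk1 encodes NKG2D, which signals through Hcst and, in mice, also through Tyrobp. It stood at 489 CPM in tumor Tdp, 185 CPM in tumor Cd4, 14.5 CPM in lymph node Cd8 and 2.00 CPM in lymph node Cd4 cells. Hcst, the adaptor beside Tyrobp on the chromosome, was detected in 2666 of 2693 tumor Tdp cells, whereas Tyrobp was detected in 53. Of the ITIM phosphatase genes, Ptpn6 was 1.10-fold and Inpp5d 1.15-fold higher in Tdp than Cd4 cells, and Ptpn11 2.85-fold lower (34.6 against 98.5 CPM). Among gp49 ligand genes, Itgav, the integrin alpha-v subunit, was 5.66-fold higher in tumor than lymph node Cd4 cells and Itgb3 4.37-fold lower. Of 9 genes listed with coinhibitory receptors, 8 were in the table: Cd160, Ctla4, Entpd1, Havcr2, Lag3, Pdcd1, Tigit and Tnfrsf9. Of these, Tnfrsf9 encodes a costimulatory receptor and Entpd1 an ectoenzyme. All 8 were counted and higher in tumor Tdp than lymph node Cd8 cells, beside 11.4% of 4836 genes. The median log2 ratio of these 8 genes was 4.48, against 0.17 for all counted genes.

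Fcer1g RNA was concentrated in few cells. It was found in 173 tumor Cd4 cells with 3.01 UMIs per positive cell, and 35 cells with 5 UMIs or more held 48.8% of all Fcer1g UMIs of the label. In tumor Tdp cells 72 cells were positive with 2.68 UMIs each, and 14 cells with 5 or more held 51.8%. The variance of UMIs per cell was 4.95 times the mean in tumor Cd4 and 4.97 times in tumor Tdp cells, against 1.70 and 1.55 for Lilr4b. Counting intervals of Fcer1g levels are therefore too narrow, which also holds for the ratios by cell state, and shares of positive cells are given beside most of them. All 173 positive tumor Cd4 and all 72 positive tumor Tdp cells had a T cell receptor call and a Cd3e UMI. Among cells with the main receptor pair, 7.24% (6.21 to 8.38) of 2280 Cd4 cells and 2.69% (2.10 to 3.38) of 2643 Tdp cells were positive, so the spread occurred within 1 receptor. None of the 244 tumor Tcell cells with that pair had an Fcer1g UMI, at the lowest depth of the large labels; this limits detection to 3 cells and does not bound the cells that express the gene.

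**Figure D2:**
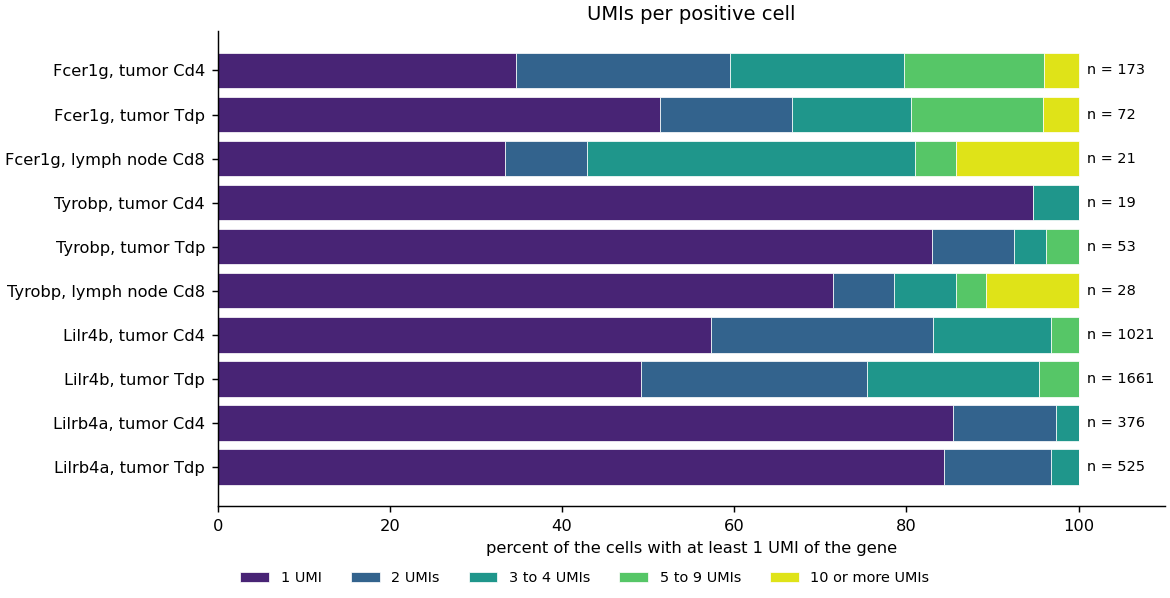
Cells with at least 1 UMI of a gene (rows, with their number n), split by UMIs in the cell (horizontal axis, percent of positive cells). Fcer1g shows the widest spread in the tumor, with 7 of 173 positive tumor Cd4 cells at 10 UMIs or more, while most Lilrb4a- and Tyrobp-positive tumor cells hold a single UMI.

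Cells of a label were also split by their coreceptor UMIs. Tumor Cd4 cells with UMIs of both coreceptors had 47.7 CPM of Fcer1g, with 9.01% (5.59 to 13.6) positive, and those with Cd4 alone 35.4 CPM, with 6.77% (5.67 to 8.01) positive. Tumor Tdp cells with both had 8.70 CPM and 2.47% (1.84 to 3.24) positive. Those with Cd8a or Cd8b1 alone had 13.7 CPM but 2.17% (1.12 to 3.75) positive, so level and share had opposite orders and the shares overlapped. The 86 Tdp cells with Cd4 alone had 43.5 CPM (21 UMIs) and 10.5% (4.90 to 18.9) positive, which overlaps the Cd4 label.

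Within tumor Cd4 cells Fcer1g varied with cell state. At 2000 UMIs per cell, cells with a Gzmb UMI, the gene of the cytotoxic protease granzyme B, had 56.6 CPM of Fcer1g and cells without 23.6 CPM, 2.40-fold more (1.76 to 3.30), and 6.72% (5.13 to 8.62) against 3.50% (2.65 to 4.54) were positive. Klrk1-positive cells gave 2.07-fold more (1.50 to 2.85), with 7.76% against 3.67% positive. Cells with a UMI of Pdcd1, the gene of the inhibitory receptor PD-1, gave 1.86-fold more (1.35 to 2.56), with 5.97% (4.26 to 8.10) against 4.15% (3.28 to 5.19) positive, intervals that overlap. Fcer1g was lower in cells with Tnfrsf4, the gene of the costimulatory receptor OX40, at 29.0 against 55.1 CPM, with 3.79% (2.97 to 4.77) against 7.34% (5.34 to 9.80) positive. With Tnfrsf9 it was at 18.4 against 39.1 CPM and with the chemokine receptor gene Ccr8 at 16.1 against 38.0 CPM. The shares of positive cells overlapped in both, at 3.02% (1.66 to 5.02) against 5.01% (4.09 to 6.08) and 2.57% (1.12 to 5.01) against 4.94% (4.05 to 5.95). Of 16 state genes with 50 cells or more on each side, 4 had a ratio interval above 1 (Gzmb, Havcr2, Pdcd1 and Klrk1) and 4 below 1 (Lag3, Tnfrsf9, Ccr8 and Tnfrsf4); the shares of positive cells were apart for Gzmb, Klrk1 and Tnfrsf4.

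In tumor Tdp cells, of 14 such genes, Pdcd1 had an interval above 1, with 17.7 against 6.82 CPM of Fcer1g, and Klrk1 below 1, with 7.61 against 14.7 CPM. The shares of Fcer1g-positive cells in these splits had overlapping intervals, at 1.66% against 1.19% for Pdcd1 and 0.951% against 1.93% for Klrk1. The Klrk1 ratio was thus above 1 in Cd4 and below 1 in Tdp cells; the difference between these ratios was not tested. Gzmb-positive Tdp cells had 10.5 CPM of Fcer1g, well under the 56.6 CPM of Gzmb-positive Cd4 cells, so the difference between labels was also seen among cells with Gzmb RNA. Lilr4b varied less over the same splits, from 0.569-fold to 1.32-fold in Cd4 and from 0.940-fold to 1.31-fold in Tdp cells. Its interval was above 1 at 4 of 14 splits in Tdp cells (Gzmb, Havcr2, Cd8a and Isg15). In Cd4 cells 1 was above (Entpd1) and 1 below (Cd4). Tyrobp, at few UMIs, had intervals above 1 with Klrk1 in Cd4 cells and with Havcr2 and Cd8a in Tdp cells. Lilrb4a in tumor Cd4 cells was 1.69-fold higher with Entpd1, the gene of the ectoenzyme CD39 (51.4 against 30.4 CPM), and 1.52-fold higher with Pdcd1 (43.2 against 28.4 CPM). Each of the 4 genes was compared at 16 splits in Cd4 and 14 in Tdp cells, with no adjustment for their number.

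**Figure D3:**
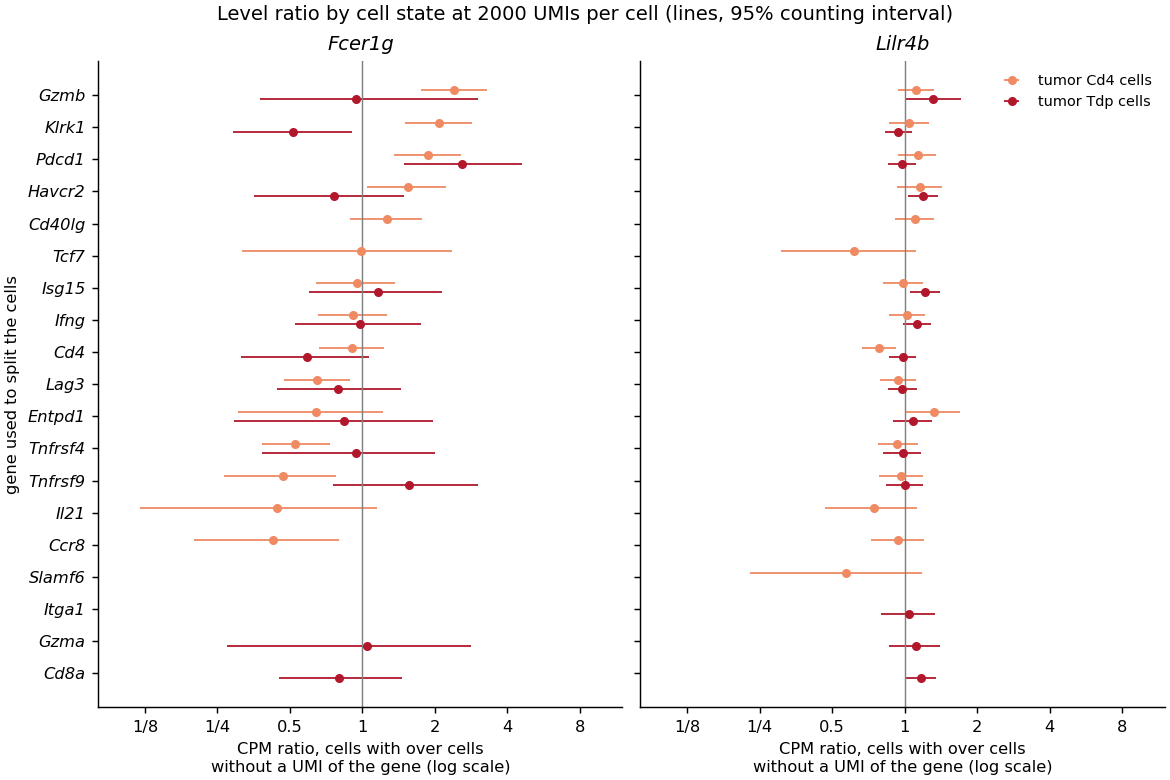
Ratio of Fcer1g (left) and Lilr4b (right) CPM between tumor cells with and without a UMI of each state gene, at 2000 UMIs per cell (horizontal axes, log scale; lines, 95% counting intervals; ratios with fewer than 3 UMIs on either side not drawn). Fcer1g in tumor Cd4 cells ranges from 0.423 with Ccr8 to 2.40 with Gzmb, while Lilr4b ratios lie nearer to 1.

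Other RNA of Fcer1g-positive tumor Cd4 cells was compared with that of negative cells at equal depth (112 against 2306 cells), where 3.36% of 5205 genes were at least 2-fold higher and 5.48% lower. The largest ratio was for Gzmf, a granzyme gene, at 103 against 4.34 CPM (23.7-fold, 12.4 to 45.5), followed by the protease inhibitor gene Serpinb9b (75.9 against 18.0 CPM) and Lat2 (67.0 against 19.3 CPM). Gzmf was a matter of few cells: over all UMIs it was found in 10 of 173 positive and 21 of 2278 negative cells, and 1 positive cell held 44 of the 70 UMIs; these counts were looked up after the ratio was seen. Lat2 was broader, in 39 of 173 positive cells (22.5%, 16.5 to 29.5) and 10.7% of negative cells. Ifitm1, an interferon-induced membrane protein gene, was at 406 against 152 CPM (2.67-fold), and was found in 32.4% of positive and 14.5% of negative cells. Other interferon-induced genes did not follow it over all UMIs: Isg15 was found in 45.1% of positive and 44.1% of negative cells. Ifit1 was found in 4.62% and 6.28%, and Cxcl10 in 1.73% and 3.78%. Cln3, Erap1, Tmem181a and Cdkn2b completed the 8 highest ratios, from 2.52-fold to 3.21-fold. Inside the label Cd247 was at 509 CPM in positive and 525 CPM in negative cells (0.969-fold, 0.796 to 1.17), and Zap70 was at 357 and 397 CPM. Klrk1 was 1.66-fold higher (1.28 to 2.14) and Hcst 1.11-fold (0.976 to 1.25).

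Tyrobp in the tumor was thin: 72 UMIs in 53 Tdp cells and 21 UMIs in 19 Cd4 cells, with a single UMI in 44 of the 53. Tumor cells with both Fcer1g and Tyrobp were too few to say whether the 2 genes gather in the same cells. Both genes were found in 1 Tdp cell, where 1.42 would be found if they were independent, and in 2 Cd4 cells, where 1.34 would be. In Tdp cells Tyrobp was found in 1.39% (0.0352 to 7.50) of Fcer1g-positive and 1.98% of Fcer1g-negative cells.

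In the lymph node the adaptors coincided in some cells. Among Cd8 cells, 8 held both, where 0.211 would be found if independent. Of these, 3 stood apart: they held 19, 30 and 41 Tyrobp UMIs and 12, 15 and 11 Fcer1g UMIs, at totals of 3496, 5302 and 7751 UMIs. They had no receptor call, no Cd3e UMI and no Cd4, Cd8a or Cd8b1 UMI, no Trac, Trbc1 or Trbc2 UMI, but 5 Cd3d UMIs in 1 of the cells. They also had 31, 54 and 126 UMIs of Gzma, the granzyme A gene. Natural killer receptor genes were present, with 5 UMIs of Ncr1, 6 of Klrb1c and 10 of Klra7 in all 3 cells together, and these 5 were all the Ncr1 UMIs of the label. These 3 cells, 16549 UMIs of 18119264, held 70.9% of the Tyrobp and 44.7% of the Fcer1g UMIs of the lymph node Cd8 label and no gp49 UMI. Without them the label had 2.04 CPM of Tyrobp in place of 7.01 and 2.60 CPM of Fcer1g in place of 4.69. The order of Tyrobp then placed tumor Tdp cells (3.95 CPM) above lymph node Cd8 cells. The cells were singled out after their values were seen, and the label Cd8 does not match their coreceptor RNA.

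**Figure D4:**
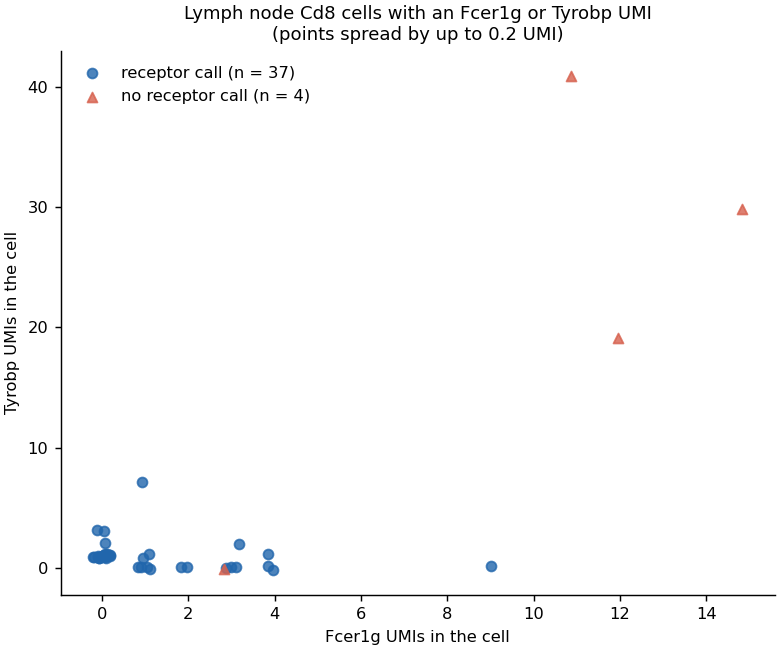
UMIs of Fcer1g (horizontal axis) and Tyrobp (vertical axis) in each lymph node Cd8 cell with at least 1 of either, by whether a receptor was called (37 with, 4 without; points are spread slightly so that they can be told apart). The 3 cells at 11, 12 and 15 Fcer1g and 19 to 41 Tyrobp UMIs have no receptor call; no cell with a call exceeds 9 Fcer1g or 7 Tyrobp UMIs.

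Lymph node Cd8 cells with a receptor call still held some Fcer1g, 44 UMIs in 17 of 2669 cells, all 17 with a Cd3e UMI. Some coreceptor and receptor genes differed in frequency between these cells and the 2652 others, and some did not. Cd8b1, the CD8 beta chain gene, was found in 7 of 17 (41.2%, 18.4 to 67.1) against 2519 of the 2652 others, while Cd8a was found in 13 of 17 (76.5%) against 87.0%. The killer receptor genes Klre1 and Klra7 were each found in 8 of 17 (47.1%) against 1.62% and 0.943%, Klrk1 in 9 of 17 against 3.13% and the gamma receptor constant gene Tcrg-C2 in 5 of 17 against 0.302%. Trac was found in 12 of 17 (70.6%) against 68.7% and Klrd1 in 58.8% against 55.3%, and the delta receptor constant gene Trdc in 0 of 17 against 0.490%. Tyrobp was found in 5 of these 17 cells (29.4%) and in 0.754% of the others. Tyrobp-positive cells with a receptor call, 25 in number, had Cd8b1 in 23, and 94.7% of the others had it.

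The gp49 genes were spread over cells more evenly, and the share of Lilrb4a among the UMIs of the pair differed between labels. It was 16.3% (630 of 3863; 15.2 to 17.5) in tumor Tdp cells, 20.1% (441 of 2193; 18.5 to 21.8) in tumor Cd4 cells and 15.3% (27 of 177; 10.3 to 21.4) in tumor Tcell cells. The Tdp and Cd4 intervals did not overlap. Lymph node Cd8 cells had 35.7% (15 of 42; 21.6 to 52.0). Split by a Gzmb UMI, the share was 16.1% (15.0 to 17.3) with and 25.0% (20 of 80; 16.0 to 35.9) without in Tdp cells, and 18.8% (16.6 to 21.1) and 21.7% (19.1 to 24.4) in Cd4 cells. Both pairs of intervals overlapped; Gzmb is 1 of 20 genes at which the share was split. Whether wrong assignment of reads within the pair takes part in these shares was not tested.

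The gp49 genes were found together in 375 of 2693 tumor Tdp cells, where 324 would be found if independent, and in 226 of 2451 Cd4 cells against 157. Depth adds to such counts, and at 2000 UMIs the values were 66 against 51.8 and 35 against 30.7. Lilrb4a-positive Tdp cells had 261 CPM of Lilr4b and negative cells 178 CPM (1.47-fold, 1.17 to 1.82). Fcer1g was shared with Lilr4b in 77 tumor Cd4 cells against 72.1 expected if independent, and in 44 Tdp cells against 44.4. Lilr4b-positive Tdp cells (775 against 1888 negative) had Ifit1 at 71.6 against 39.2 CPM and Isg15 at 324 against 223 CPM, both interferon-induced genes, while Ifitm1, also interferon-induced, was at 46.5 against 70.2 CPM. Over all UMIs, Ifit1 was found in 10.2% of positive and 9.40% of negative cells. At 2000 UMIs, 0.085% of 4708 genes were at least 2-fold higher and 0.0% lower. Lilrb4a-positive Tdp cells (178) had Cxcl10, an interferon-induced chemokine gene, at 70.2 against 17.7 CPM, and Ifitm1, another interferon-induced gene, at 5.62 against 67.4 CPM (0.0833-fold, 0.0101 to 0.303), where 1.65% of 4789 genes were at least 2-fold higher and 1.67% lower. Over all UMIs, Cxcl10 was found in 25 of 525 Lilrb4a-positive (4.76%) and 3.37% of negative cells, and 1 positive cell held 62 of the 170 UMIs. Ifitm1 was found in 6.29% of positive and 6.60% of negative cells by the same count. In tumor Cd4 cells the largest ratio with Lilr4b was 1.64-fold, for Itih5, beside 0.0604% of 4964 genes at least 2-fold higher and 0.262% lower.

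Across the 6 label groups of 50 cells or more, the genes whose log2(CPM + 1) was most like each member were ranked among 5504 genes by Pearson's r, over groups that come from only 2 libraries. Fcer1g was most like Stat4 (r = 0.99), the gene of a transcription factor of interleukin-12 signalling, then Mrpl33, Trafd1, Cks2 and Higd1a. Tyrobp was most like Rnf138 (0.98), followed by Eomes (0.96), a transcription factor gene of natural killer and CD8 T cells, Lamb3, Lcn4 and Hipk1. Without the 3 lymph node cells described above, r was 0.78 for Rnf138, 0.90 for Eomes and 0.58 to 0.85 for the others, so the Tyrobp ranking rests on those cells. The order for Fcer1g changed as well. Stat4 then had r = 0.96 and fell from rank 1 to 9, with Mrpl33 at rank 10 and Trafd1 at 8. Cks2 and Higd1a stood at ranks 2 and 3. Lilr4b was nearest to Pstpip1, Fut11, Smim3, Mt2 and Wdfy1, and Lilrb4a to Zeb2, Klrc1, Emp1, Trdc and Srgap3, each at 0.99 or above. Lilr4b and Lilrb4a had r = 0.99 with each other, Fcer1g 0.79 with Lilr4b and 0.83 with Lilrb4a, and Tyrobp 0.35 with Fcer1g (0.53 without those cells). Tyrobp had 0.22 with Lilr4b and 0.25 with Lilrb4a, and 0.73 and 0.71 without those cells. For the gp49 genes 188 and 132 genes had r over 0.95, against 7 for Fcer1g and 3 for Tyrobp. These counts include the 3 lymph node cells. Without them the gene at rank 10 for Fcer1g, Mrpl33, still had r = 0.96, so its count would be higher.

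Markers of other cell types were summed in the groups that hold these genes. The 13 macrophage and monocyte genes in the table summed to 18.9 CPM in tumor Tdp, 9.38 CPM in tumor Cd4 and 9.22 CPM in lymph node Cd8 cells, with 1, 4 and 5 of them at 0. Cd68 alone was at 13.0 CPM in tumor Tdp and 3.08 CPM in tumor Cd4 cells. Each other gene was at 1.50 CPM or less in both tumor labels, with no common order. In Fcer1g-positive tumor Cd4 cells the sum was 17.3 CPM (18 UMIs in 11 of 173 cells) and in negative cells 8.75 CPM. The 4 mast cell and basophil genes gave 0.959 CPM in Fcer1g-positive and 3.56 CPM in negative tumor Cd4 cells. The 8 natural killer genes summed to 411 CPM in tumor Tdp and 50.3 CPM in tumor Cd4 cells, opposite to the order of Fcer1g. Most of the sum came from Prf1 (209 against 23.6 CPM), Gzma (112 against 4.08), Klre1 (45.8 against 9.45) and Eomes (42.4 against 9.45). Klrb1c (1.53 against 3.15 CPM) and Klra9 (0.329 against 0.573) had the same order as Fcer1g, at few UMIs. Ncr1 and Klra8 were at 0 in both labels. In Fcer1g-positive tumor Cd4 cells the 8 natural killer genes gave 72.8 CPM, against 48.4 CPM in negative cells. Neutrophil, dendritic, B cell and melanoma genes gave 1.86, 29.6, 25.5 and 1.43 CPM in tumor Cd4 cells, and B cell genes 218 CPM in lymph node Cd8 cells. The 9 T cell genes gave 10306 CPM in Fcer1g-positive and 10758 CPM in negative tumor Cd4 cells. The part of other cells in the Fcer1g levels of T cells was not tested beyond these values.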

How the data were processed

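The authors deposited UMI counts per gene and cell and an annotation that gives each cell's library, label and receptor call. Libraries were 10x Genomics 5-prime libraries per the labels' protocols, processed with Cell Ranger 3.1.0 on mm10 per the submitters' processing notes. The sources used here state no cell filter, doublet treatment or rule behind the labels. All cells were kept, and doublets were not called.

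UMIs were summed per library and label and divided by the group's total (CPM); totals per cell had the medians given in the report. Ratios are of CPM, with exact conditional Poisson intervals at 95%. Calls use log2(CPM + 1), at 20 CPM or more in either group, over genes other than receptor segments and Cd4, Cd8a and Cd8b1. Alternative settings changed scaling, total, weight of cells, depth, pseudocount, CPM minimum, cells kept and cell classes. Shares have Clopper-Pearson intervals. For equal depth, cells were thinned to 2000 UMIs, and shallower cells were left out, 257 of 5570 in the tumor (192 of them Tcell) and 100 of 4988 in the lymph node. With 1 RNA library per tissue no p-value was computed. The ratio and interval code was tested on simulated data.

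The 4 genes, the gene lists and the comparisons were chosen with earlier results of these data known. Genes named otherwise are list members, the 5 most like each of the 4 across groups, or the 8 with the highest ratio in positive cells among genes of 50 CPM or more; receptor segments, predicted, mitochondrially encoded, cytosolic ribosomal protein and sex-linked marker genes were left out. Python 3.11.15, numpy 2.4.6, pandas 2.3.3, scipy 1.17.1, R 4.3.3 and edgeR 4.0.16 (TMM scaling of the counts only) were used. Positions and promoters are RefSeq's, on GRCm38.p6, matched by symbol.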

Additional observations from a re-analysis of the deposited data

How the results depend on the processing

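No paired analysis was possible because each tissue has 1 RNA library and no result comes from a test across samples. Of 190 alternative values of the members' log2 ratios of CPM + 1, 166 stayed within the counting interval of the reported ratio, and 24 were outside it. All 58 alternatives of ratios past 2-fold at 20 CPM or more stayed past 2-fold in the same direction; Tyrobp between tumor Tdp and lymph node Cd8 cells changed sign, as did ratios of lymph node Treg against Cd4 cells, which rest on 5 UMIs or fewer per group. The cause of each shift was not tested unless named.

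With a pseudocount of 10, which shrinks low levels by construction, Fcer1g was at -1.20 between tumor Tdp and Cd4 cells (reported -1.73), 2.16 between tumor and lymph node Cd4 cells, 0.49 between tumor Tdp and lymph node Cd8 cells and 0.48 between lymph node Cd8 and Cd4 cells. Lilr4b was then at 3.74 and 4.03, and Lilrb4a at 2.04 and 2.04, in the 2 tumor against lymph node comparisons, and Tyrobp at 0.69 between lymph node labels. Between tumor Tdp and Cd4 cells, Fcer1g was at -1.99 without cells holding macrophage, neutrophil, mast cell, B cell or melanoma markers. It was at -1.45 with classes by coreceptor UMIs. There Lilr4b was at 0.61 with TMM scaling and 0.58 at 2000 UMIs, and the summed gp49 genes at 0.43. Between tumor Tdp and lymph node Cd8 cells, Fcer1g (reported 1.02) was at 0.082 without marker-holding cells, 2.11 with coreceptor classes and 1.72 among cells with a receptor call, a setting chosen after seeing the data. Tyrobp there (reported -0.70) was at -1.74, 0.62 and 0.65 in the same order, and the summed gp49 genes at 6.00. Through Ighm, the marker filter can weigh unequally on these labels. Between lymph node Cd8 and Cd4 cells, Fcer1g was at 0.55 with coreceptor classes, and Tyrobp at 4.04 without marker-holding cells and 1.10 with a receptor call.

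Counts of genes past 2-fold followed the CPM minimum. Higher and lower genes numbered 57 and 111 in tumor Tdp against Cd4 cells, 198 and 335 with no minimum and 31 and 61 at 50 CPM. Tumor against lymph node Cd4 cells gave 757 and 319, then 1475 and 922, and 449 and 169. Tumor Tdp against lymph node Cd8 cells gave 552 and 248, then 1047 and 836, and 343 and 121. Lymph node Treg against Cd4 cells gave 546 and 73, then 1612 and 332, and 288 and 40. Lymph node Cd8 against Cd4 cells gave 96 and 65, then 371 and 184, and 42 and 29. A pseudocount of 10 gave 31 higher in the first comparison, 46 lower in Treg and 39 lower in lymph node Cd8 cells. TMM scaling shifted Treg ratios by -0.34 (log2) and gave 311 higher and 166 lower, and shifted the other comparisons by 0.12, -0.12, -0.07 and 0.07. Tyrobp and lymph node levels rest on few UMIs, which limits all of their ratios.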
